A study of Mus musculus with 8 samples.

Results

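Nuclear receptors are transcription factors, many of which are switched by small fat-soluble ligands such as retinoic acid, thyroid hormone, steroids, vitamin D, fatty acids and oxysterols. Most bind DNA through a pair of zinc fingers and recruit coactivators or corepressors, and several work as heterodimers with a retinoid X receptor. In mesenchymal precursors, receptors for retinoic acid, glucocorticoids and vitamin D are known to influence whether cells become fat, bone or cartilage. The 44 mouse genes described here are members of this superfamily other than Pparg and Rxra, listed by gene name with earlier results of these data known, out of 21627 protein-coding genes on chromosomes 1 to 19 and X. The list does not hold every other mouse nuclear receptor gene, and counts per receptor group cover the listed genes alone.

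Sites of GATA2, a zinc finger transcription factor that holds back fat cell formation, were mapped by chromatin immunoprecipitation and sequencing (ChIP-seq) in 2 unmodified mouse lines at passages 4 to 6. 3T3-L1 preadipocytes are fibroblasts that mature into fat cells, and C3H10T1/2 cells are embryonic fibroblasts that can enter several mesenchymal lineages. The labels name 2 GATA2 ChIP libraries and 2 input libraries (chromatin without antibody) per line, and DNA of separate immunoprecipitations was pooled before library preparation. The values analysed are the positions of peaks in 1 deposited list per line, 2445 peaks in 3T3-L1 and 1557 in C3H10T1/2, so no value below has a replicate or an error between cultures. The lists carry no score and no read depth, and a list of peaks cannot show whether a receptor is expressed or whether the cells carry the markers of their line.

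All coordinates are mm10, counted from 1, and a peak was placed by its centre. Strand was known for the 40 members that have a promoter window in the RefSeq table of GRCm38.p6, which reaches from 250 bases before to 50 bases after an annotated start. Thra, Hnf4g, Nr3c1 and Nr5a1 have no window there. Exon and intron boundaries were not used here.

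The promoter windows were set against the peaks first, because they are the parts of the genes whose sequence was at hand. Only 64 of all 32851 windows overlapped a peak in either list, and none of the 58 windows of members did. The closest was the downstream start of Rara (base 98964872 of chromosome 11), whose window ended 1076 bp from the 3T3-L1 peak and 878 bp from the C3H10T1/2 peak that lie upstream of it. One site within 100 kb of a member did reach a promoter window, that of Hdac7, the neighbour of the vitamin D receptor gene Vdr. Hdac7 encodes a class IIa histone deacetylase that acts as a corepressor. Both windows are shown 5′ to 3′ on the gene's strand, and capitals mark a GATA motif.
Hdac7, chr15:97814814-97815113, minus strand: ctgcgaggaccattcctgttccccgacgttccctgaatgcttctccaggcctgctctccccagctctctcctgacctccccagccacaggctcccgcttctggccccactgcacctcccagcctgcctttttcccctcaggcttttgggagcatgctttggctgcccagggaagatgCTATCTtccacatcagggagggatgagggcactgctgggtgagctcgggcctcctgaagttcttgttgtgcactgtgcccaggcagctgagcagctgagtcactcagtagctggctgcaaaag
Rara downstream start, chr11:98964622-98964921, plus strand: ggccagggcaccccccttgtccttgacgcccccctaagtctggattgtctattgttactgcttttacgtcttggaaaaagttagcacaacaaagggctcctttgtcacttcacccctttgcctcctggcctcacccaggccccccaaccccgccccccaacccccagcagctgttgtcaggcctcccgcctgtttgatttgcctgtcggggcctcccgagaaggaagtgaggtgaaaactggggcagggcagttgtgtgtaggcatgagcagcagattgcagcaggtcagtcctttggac

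The motif searched for was the letters GATA with A or T before them and A or G after them, on either strand. The Hdac7 window holds 1 match, written CTATCT on this strand, from 73 to 68 bases before the start, and it lies inside the peaks of both lines. The 3T3-L1 peak covered 129 bp of the window and the C3H10T1/2 peak 225 bp. The Rara window holds no match, which says only that these letters are not in these 300 bases. Of all 32851 windows in the table, 29.8% hold at least 1 match. Of the 58 windows of members, 15 do (25.9%), and of the 64 windows that any peak of either list touched, 36 do (56.2%).

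The first comparison asked which receptor genes have a GATA2 peak in the gene body or within 10 kb of it. In 3T3-L1 these were 5 of 44 members (11.4%, beside 3.96% of all protein-coding genes): Rara, Rarb, Rora, Esr1 and Nr6a1. In C3H10T1/2 they were 3 of 44 (6.82%, beside 3.64%): Rara, Rarb and Nr3c2. The overlap of the 2 lines was the pair of retinoic acid receptor genes Rara and Rarb, so 2 members had a peak in both lines (4.55%, beside 1.68% of all genes) and 6 had one in either line (13.6%, beside 5.92%). Within 100 kb, 15 members had a peak in either line (34.1%, beside 19.6%). In each of the 6 genes the peaks lay inside the body, and the 10 kb flanks of all 44 members were empty in both lists.

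Receptor genes are long, and long genes hold more peaks. The median length was 46.8 kb for members and 17.3 kb for all genes, and 18 members fell in the longest of 5 equally large length classes (57.8 kb or more). In that class, 4 of 18 members had such a peak in 3T3-L1 (22.2%, beside 11.6% of all genes of the class) and 2 of 18 in C3H10T1/2 (11.1%, beside 10.6%). The class does not match its members on length, since the median was 156 kb for them and 109 kb for all its genes. The 4 members with a 3T3-L1 peak were 203 to 735 kb long. Rara was the one gene with such a peak among the 9 members of the next class, where all genes stood at 3.45% and 3.54%. None of the 17 members in the 3 shortest classes had one in either list. From the shortest class up, the background there was 0.717%, 1.55% and 2.52% in 3T3-L1 and 0.74%, 1.29% and 2.06% in C3H10T1/2. So the C3H10T1/2 share in the longest class was near its background, and the 3T3-L1 share rests on 4 genes.

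**Figure D1:**
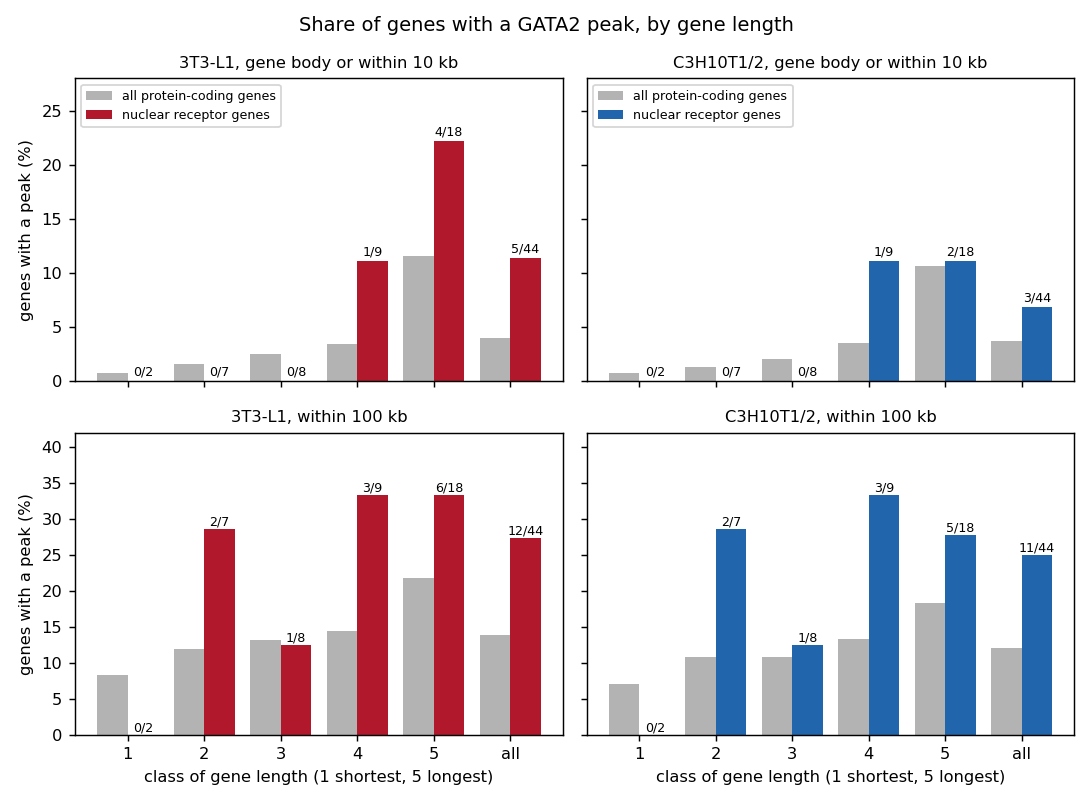
Percent of genes with at least 1 peak (y) in 5 classes of gene length and over all genes (x), for both lines and both windows. Grey bars are all protein-coding genes, coloured bars the nuclear receptor genes, with the number of members above each bar. Inside genes or within 10 kb, members with a peak are found in classes 4 and 5 only, and the C3H10T1/2 bar of class 5 is about as high as the grey one (11.1% and 10.6%).

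Of the 5 retinoid receptor genes, 2 had such a peak, each in both lines (beside 1.68% of all genes). Of the 5 steroid receptor genes also 2 did, each in one line (beside 5.92% of all genes in either line). Rarb, Esr1 and Nr3c2 are in the longest length class, where the share was 11.6% in 3T3-L1 and 10.6% in C3H10T1/2. Among the 136 genes at least as long as Rarb, the share with at least 1 such peak was 25% in 3T3-L1 and 23.5% in C3H10T1/2. Rara encodes retinoic acid receptor alpha (chromosome 11, 98927800 to 98974942, plus strand). It had 1 peak in each list. The 3T3-L1 peak spanned 98963385 to 98963546 and the C3H10T1/2 peak 98963343 to 98963744, so the whole 162 bp of the 3T3-L1 peak lay inside the C3H10T1/2 peak. At 402 bp the latter was wider than most peaks of its list (percentile 96.8), whereas the 3T3-L1 peak stood at percentile 59.7. The table gives Rara 4 starts, at 98937696, 98937718, 98939711 and 98964872. The peak centres lay 1.41 kb and 1.33 kb upstream of the last of these, whose window is printed above.

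Rarb encodes retinoic acid receptor beta, a classical target of its own ligand (chromosome 14, 16430839 to 17082331, minus strand). Its body held 2 peaks of 3T3-L1 and 4 of C3H10T1/2. At the one site common to the lines, the 3T3-L1 peak spanned 16881276 to 16881444 and the C3H10T1/2 peak 16881281 to 16881455, with 164 bp in common. The second 3T3-L1 peak was at 16841076 to 16841260, and the nearest C3H10T1/2 peak that did not overlap a 3T3-L1 peak, at 16861430 to 16861568, lay between these sites, 20.2 kb from one and 19.7 kb from the other. These sites are 266 to 306 kb upstream of the single Rarb start in the promoter table (16575476), inside the long 5′ part of the annotated gene. The remaining C3H10T1/2 peaks, at 16554469 to 16554599 and 16554675 to 16554851, were 75 bp apart and lay 20.9 kb and 20.7 kb downstream of that start, where 3T3-L1 had no peak.

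At 4 peaks Rarb was among 16 genes of 21627 with at least 4 C3H10T1/2 peaks in the body or within 10 kb (0.074%). That cutoff is its own count. Of these 4 peaks, 2 were only 75 bp apart, and all 4 were narrower than the list's median of 184 bp. Rarb is also one of the longest genes of the genome, at 651 kb. Of the 136 genes at least that long, itself included, 5 had 4 or more C3H10T1/2 peaks (3.68%) and 18 had 2 or more 3T3-L1 peaks (13.2%). The other retinoid receptors had no peak within 100 kb. Their nearest peaks were 397 kb (3T3-L1) and 2385 kb (C3H10T1/2) from Rarg, 844 kb and 998 kb from Rxrb, and 208 kb and 362 kb from Rxrg.

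**Figure D2:**
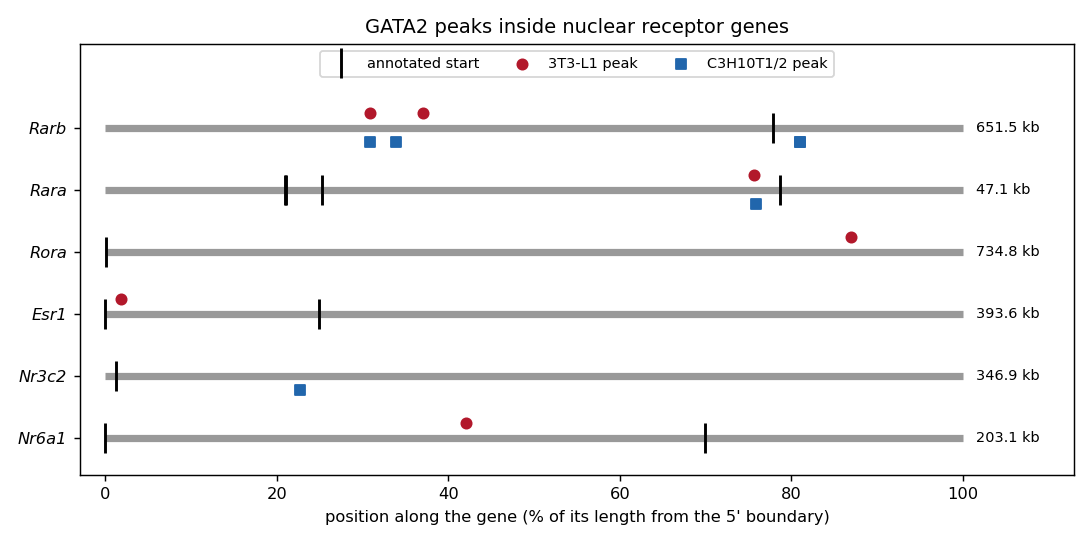
Position of each peak inside a nuclear receptor gene, as percent of gene length from the 5′ boundary (x), for the 6 genes that hold one (rows, with gene length). Grey bars are genes, black ticks the annotated starts, circles 3T3-L1 and squares C3H10T1/2 peaks. The 2 lines coincide at Rara near its last start and at 1 site of Rarb, and the 2 C3H10T1/2 peaks of Rarb that are 75 bp apart appear as 1 square.

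Peaks inside steroid receptor genes were of one line or the other. Esr1, the estrogen receptor alpha gene (chromosome 10, 4611989 to 5005633, plus strand), had a 3T3-L1 peak at 4618901 to 4619003, 6.96 kb downstream of its first start, and the nearest C3H10T1/2 peak was 601 kb from the gene. Nr3c2, the mineralocorticoid receptor gene (chromosome 8, 76898083 to 77245012, plus strand), had a C3H10T1/2 peak at 76976778 to 76976901, 74.5 kb downstream of its start. Its 3T3-L1 peak lay 97.2 kb beyond the 3′ end, inside the neighbouring gene Arhgap10, and was 90 bp wide. Nr3c1, the glucocorticoid receptor gene on chromosome 18, had no peak within 10 kb. C3H10T1/2 had peaks 21.0 kb below its lower coordinate and 60.2 kb above its higher coordinate, and 3T3-L1 had one 98.0 kb above. None of these overlapped between the lines. The estrogen receptor beta gene Esr2 and the progesterone receptor gene Pgr had their nearest peaks at 778 kb and 2629 kb, both of C3H10T1/2.

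Thyroid hormone and vitamin D receptors had distal sites that the lines share. Thra, the thyroid hormone receptor alpha gene (chromosome 11, 98740776 to 98769006), overlaps the clock repressor gene Nr1d1 by 1075 bp, and a single site reached both. The 3T3-L1 peak spanned 98682302 to 98682462 and the C3H10T1/2 peak 98682293 to 98682579, 58 kb from Thra and 85 to 86 kb from Nr1d1. This site lay 172 bp and 118 bp from the proteasome subunit gene Psmd3, which is the nearest gene. The site near Vdr (chromosome 15, 97854427 to 97908296, minus strand) is the Hdac7 one, spanning 97814878 to 97815006 by the 3T3-L1 list and 97814773 to 97815038 by the other, 39.5 kb beyond the 3′ end of Vdr. Thrb had no peak within 778 kb. That distance leads to the shared Rarb site, which is also the nearest peak of Nr1d2 in both lines, since these 3 genes follow each other on chromosome 14.

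Clock receptors, which bind the same DNA element as activators (Ror) or repressors (Nr1d), had further sites in one line each. Rora (chromosome 9, 68653404 to 69388246, plus strand) is the longest member at 735 kb. It had a 3T3-L1 peak at 69292408 to 69292523, 639 kb downstream of its start and 87.0% along the gene. A second 3T3-L1 peak, 81 bp wide, lay 71.0 kb beyond its 3′ end inside Anxa2, and the nearest C3H10T1/2 peak was 1119 kb away. Rorb had a C3H10T1/2 peak 40.0 kb beyond its 3′ end, inside Trpm6, and its nearest 3T3-L1 peak was 1641 kb away.

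None of the 7 genes grouped as lipid and xenobiotic sensors had a peak within 100 kb in either line: the fatty acid receptor genes Ppara and Ppard, the oxysterol receptor genes Nr1h2 and Nr1h3, the bile acid receptor gene Nr1h4 and the xenobiotic receptor genes Nr1i2 and Nr1i3. The closest approaches were 114 kb at Ppard (3T3-L1), 131 kb at Nr1i2 (the same site in both lines), 163 kb at Nr1h3 and 167 kb at Nr1h4 (both C3H10T1/2). The share of all genes with a peak of either line in this window was 19.6%, so an empty group of this size is no result on its own.

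Among the 20 genes grouped as orphan receptors, whose ligands are unknown or unsettled, 5 had a peak within 100 kb in either line, a count close to the 19.6% of all genes. Nr6a1, the germ cell nuclear factor gene (chromosome 2, 38723369 to 38926461, minus strand), had a 3T3-L1 peak at 38841081 to 38841271, between its annotated starts. The same peak was the nearest one to its neighbour Nr5a1, at 127 kb. Esrra, which encodes an estrogen-related receptor that drives mitochondrial genes, had a shared site 30.8 kb upstream, spanning 6952789 to 6952943 on chromosome 19 by the 3T3-L1 list and 6952774 to 6952918 by the other, between Plcb3 and Bad and under 1 kb from each. Nr2f2, which encodes COUP-TFII, had a C3H10T1/2 peak 40.2 kb downstream in a long noncoding RNA gene, with Nr2f2 as the nearest protein-coding gene. Esrrg had a C3H10T1/2 peak 68.5 kb upstream, and Nr2e3 a 3T3-L1 peak 63.8 kb upstream inside Thsd4. The immediate early receptor genes Nr4a1, Nr4a2 and Nr4a3 had their nearest peaks at 1171, 1512 and 462 kb, all in 3T3-L1.

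**Figure D3:**
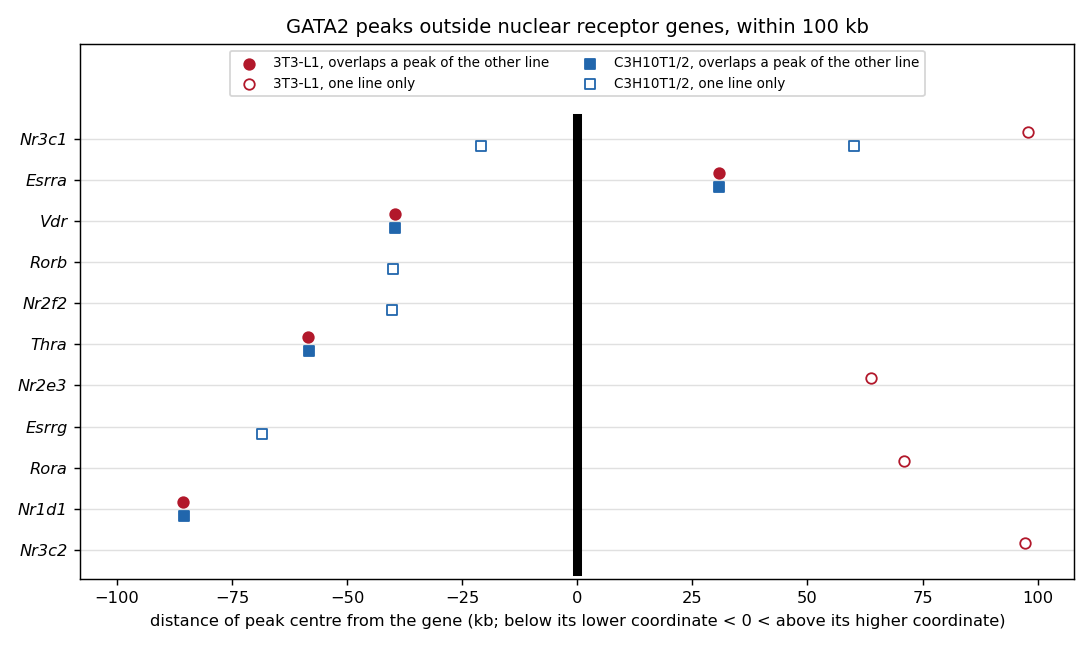
Peaks outside a member gene but within 100 kb of it, by distance of the peak centre below the lower or above the higher gene coordinate (x, kb), for 11 genes (rows). Filled symbols overlap a peak of the other line and open symbols do not. Shared sites appear as pairs at Esrra, Vdr, Thra and Nr1d1, the last 2 being a single site seen from 2 genes.

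Counted over the wider window, 12 of 44 members had a 3T3-L1 peak within 100 kb (27.3%, beside 13.9% of all genes) and 11 had a C3H10T1/2 peak (25.0%, beside 12.1%). In both lines there were 8 members (18.2%, beside 6.35%), which are 8 of the 12 and 8 of the 11: Rara, Rarb, Thra, Nr1d1, Vdr, Esrra, Nr3c1 and Nr3c2. By length class the 3T3-L1 counts were 6 of 18 in the longest class (33.3%, beside 21.8% of all genes of that class), 3 of 9 in the next (33.3%, beside 14.4%) and 1 of 8 in the third (12.5%, beside 13.2%). For C3H10T1/2 they were 5 of 18 (27.8%, beside 18.3%), 3 of 9 (33.3%, beside 13.3%) and 1 of 8 (12.5%, beside 10.8%). In the second shortest class Nr1d1 and Esrra had a peak in each line (2 of 7 members, beside 11.9% of genes in 3T3-L1 and 10.8% in C3H10T1/2). The shortest class held 2 members and no peak (beside 8.25% and 7.07%). The members' shares were thus above those of all genes in most classes, by a few genes each, and no test was run on a list chosen with earlier results known. Members of the longest class were also longer, by their median, than all genes of that class. The edge of the window matters for the steroid receptors, since the 3T3-L1 peaks of Nr3c2 and Nr3c1 were at 97.2 and 98.0 kb, whereas Ppard was just outside at 114 kb. With only the peaks of at least the median width of their list, 7 members remained within 100 kb in each line. All genes then stood at 7.69% and 6.91%. Inside the 10 kb window 3 and 1 members kept one, beside 2.17% and 1.98%. In C3H10T1/2 this was Rara, so Rarb no longer had a peak in both lines.

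Across the 44 genes, the median distance from a member to its nearest peak was 411 kb in 3T3-L1, beside 588 kb for all genes, and 451 kb in C3H10T1/2, beside 744 kb. Within the longest class, where members were longer by their median, it was 290 kb beside 435 kb, and 377 kb beside 590 kb. Farther than 1 Mb from any peak of 3T3-L1 were 14 members (31.8%, beside 34.1% of all genes), and of C3H10T1/2 10 members (22.7%, beside 41.0%). There were 29 members without a peak within 100 kb in either list. The nearest of these by their closer line were Ppard (114 kb) and Nr5a2 (119 kb, C3H10T1/2), and the farthest were Pgr (2629 kb) and the X-linked Nr0b1 (7628 kb in both lines).

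**Figure D4:**
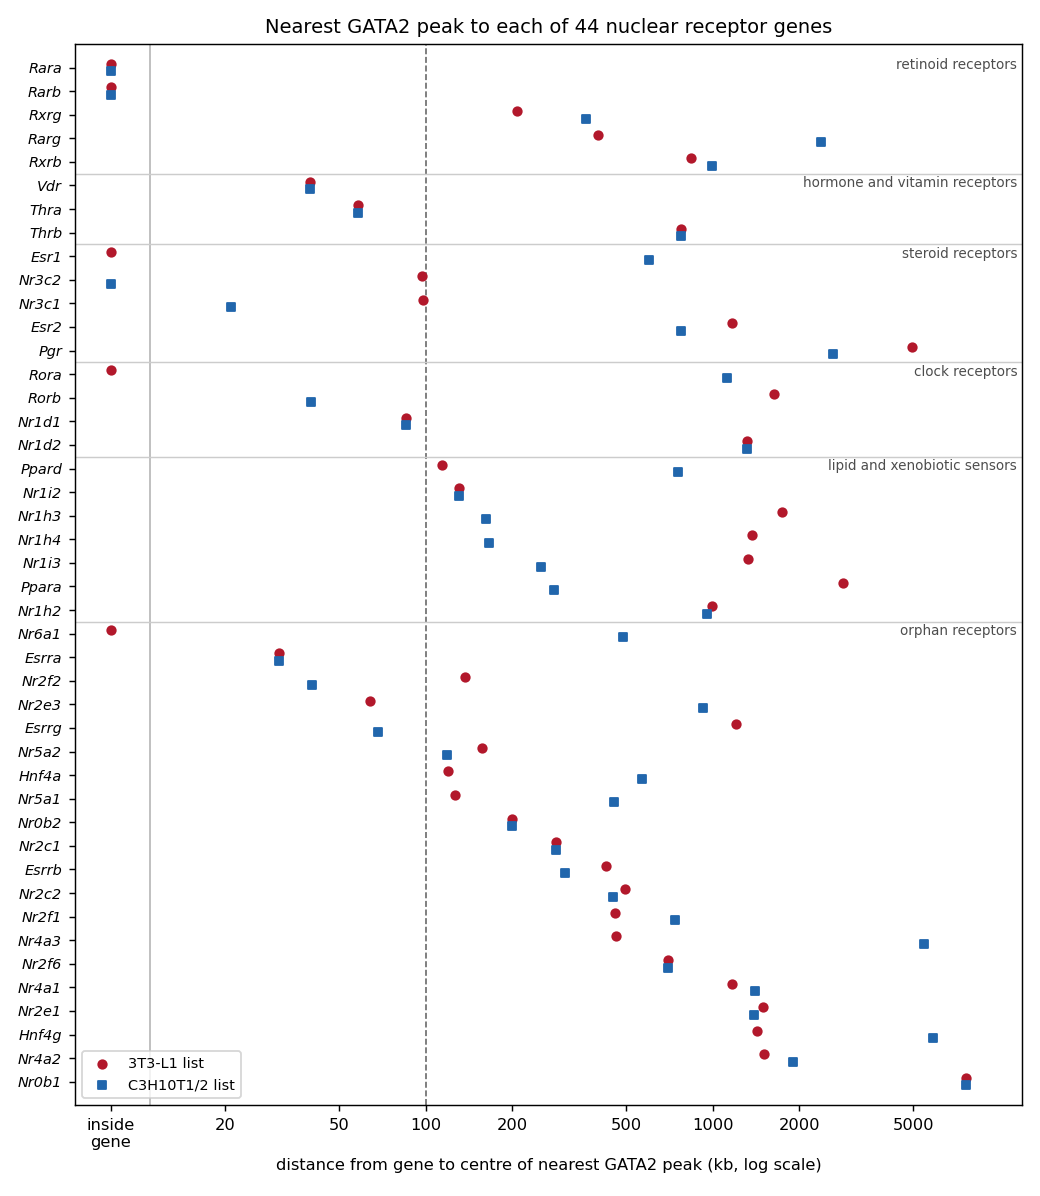
Distance from each of the 44 genes (rows, by receptor group) to the centre of the nearest peak of each list (x, kb, log scale). Points in the left strip are peaks inside the gene, and the dashed line is 100 kb. Red and blue coincide where the nearest peaks of both lines overlap, as at Rara, Vdr, Thra, Esrra, Nr0b2 and Nr0b1.

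For 13 members (29.5%, beside 18.8% of all genes) the nearest peaks of the lists overlapped. These were Rara, Rarb, Thra, Thrb, Vdr, Nr1d1, Nr1d2, Nr1i2, Esrra, Nr2c1, Nr2f6, Nr0b1 and Nr0b2, and they point to 10 different sites because neighbouring members share one. The overlap was counted at any distance, and only Rara, Rarb, Thra, Nr1d1, Vdr and Esrra had the site within 100 kb. For the others it lay from 131 kb (Nr1i2) to 7628 kb (Nr0b1) away. The share of peaks found in both lines was close to that of the whole list in C3H10T1/2 and higher in 3T3-L1, on small counts. Of 14 different C3H10T1/2 peaks within 100 kb of a member, 5 overlapped a 3T3-L1 peak (35.7%, beside 34.7% of the whole list). Of 13 different 3T3-L1 peaks, 5 overlapped a C3H10T1/2 peak (38.5%, beside 22.4%). The 5 shared sites were those at Rara, Rarb, Thra and Nr1d1, Vdr, and Esrra. If a shared peak must cover at least 50% of both peaks, 3 of the 13 and 3 of the 14 remain, beside 18.2% of the whole 3T3-L1 list and 28.5% of the C3H10T1/2 list. With 3 peaks left in each line, no difference from the lists can be read.

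The peaks within 100 kb of members were together of ordinary width. Their median was 155 bp in 3T3-L1 (range 81 to 227), beside 144 bp in the whole list, and 176 bp in C3H10T1/2 (range 124 to 402), beside 184 bp. Those inside members had a median of 165.5 bp in 3T3-L1 and 157 bp in C3H10T1/2, where only the Rara peak exceeded the list's median. No peak near a member lay in a dense run of peaks, beside 454 of 2445 in 3T3-L1 and 20 of 1557 in C3H10T1/2. A member was the nearest protein-coding gene for 7 of the 13 peaks of 3T3-L1 and for 9 of the 14 of C3H10T1/2. The same share was not computed for other genes, so these counts have no background. With each peak of the whole list given to its nearest gene at any distance, 8 members received one in 3T3-L1 (18.2%, beside 6.2% of all genes) and 8 in C3H10T1/2 (18.2%, beside 5.08%). Rara, Rarb, Nr3c1, Nr2f1 and Nr2f2 were in both sets. For the COUP-TF gene Nr2f1 the nearest peaks were far, at 456 kb in 3T3-L1 and 737 kb in C3H10T1/2. Also beyond 100 kb were the nearest 3T3-L1 peak of Nr2f2 (138 kb) and the nearest C3H10T1/2 peak of Nr5a2 (119 kb). The nearest-gene shares were not computed by length class.

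Genes that work with the receptors were counted in the same way. Of 26 coregulator genes (median length 96.2 kb), 4 had a peak inside the 10 kb window in 3T3-L1 (15.4%) and 1 in C3H10T1/2 (3.85%). All genes stood at 3.96% and 3.64%, and the longest length class, which holds that median, at 11.6% and 10.6%. Tbl1xr1, which encodes a subunit of a nuclear receptor corepressor complex, had the one site in common (chromosome 3, 22167900 to 22168121 by the 3T3-L1 list). The acetyltransferase gene Kat2b and Ppargc1a, which encodes the coactivator PGC-1 alpha, each held a peak of 3T3-L1 alone. Within 100 kb there were 7 coregulator genes in 3T3-L1 (26.9%, beside 13.9% of all genes and 21.8% of the longest class) and 4 in C3H10T1/2 (15.4%, beside 12.1% and 18.3%). The list is not matched to the longest class, since its genes run from 2.45 to 662 kb. Inside the 10 kb window the C3H10T1/2 share was close to that of all genes.

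Of 28 genes that make, carry or break down receptor ligands (median length 15.1 kb), each line had a peak inside the 10 kb window of 3 (10.7%, beside 3.96% of all genes in 3T3-L1 and 3.64% in C3H10T1/2). Crabp1, which encodes a cytosolic retinoic acid carrier, had a C3H10T1/2 peak in the body. Hsd11b1, whose enzyme regenerates active glucocorticoid, had a C3H10T1/2 peak in the body that was 329 bp wide. Cyp7b1, an oxysterol hydroxylase gene, held 3 peaks of 3T3-L1, and the retinol saturase gene Retsat held 1. Within 100 kb the count was 8 of 28 genes in each line (28.6%, beside 13.9% and 12.1%), of which 6 were in both (21.4%, beside 6.35%).

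Of 26 known receptor target genes (median length 30.5 kb), 3 had a peak inside the 10 kb window in 3T3-L1 (11.5%, beside 3.96% of all genes) and 2 in C3H10T1/2 (7.69%, beside 3.64%). Lpcat3, an oxysterol receptor target that remodels phospholipids, had a shared site near the middle of the gene, spanning 124683732 to 124684104 on chromosome 6 by the 3T3-L1 list. The glucocorticoid targets Fkbp5 and Sgk1 each held a peak of 3T3-L1, and Cpt1a, the fatty acid import enzyme gene, had a C3H10T1/2 peak. Within 100 kb the counts were 5 in 3T3-L1 (19.2%, beside 13.9%) and 7 in C3H10T1/2 (26.9%, beside 12.1%).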

How the data were processed

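Per the submitters' processing notes mm10 was the build, and MACS2, Bowtie2, bedtools, SAMtools and CASAVA 1.8 were used. The threshold, the use of input and how libraries were combined are not given in the sources used here. The authors deposited 1 list per line with start and end positions, and no score, signal or p-value. Dense runs, defined as at least 8 peaks with gaps of at most 20 kb, were kept. Genes came from RefSeq's GRCm38.p6 table, and all 44 symbols matched. A gene counted as having a peak when a peak centre lay from 10 kb (or 100 kb) below its lower to the same distance above its higher coordinate. Peaks were shared when they overlapped by at least 1 bp. Counting used Python 3.11.15, numpy 2.4.6 and pandas 2.3.3 and was tested on simulated data. The members and lists were chosen with earlier results of these data known, so shares stand beside those of all genes and of 5 length classes, and no test or random gene set was used. Every member with a peak within 100 kb was named, and of the other lists every gene with one in the body or within 10 kb, except that some results are not reported here. In the target list 26 of 27 symbols matched, since 2 are names of 1 gene. Depth is unknown.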

Additional observations from a re-analysis of the deposited data

How the results depend on the processing

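No paired analysis was possible because each line has 1 peak list, and no replicate could be left out for the same reason. Counts of members by line (3T3-L1, then C3H10T1/2) moved by more than 1.5 times under these settings. In the body or within 10 kb (5 and 3 members) the count was 3 and 1 with peaks of at least the median width. All genes then stood at 2.17% and 1.98%. With the window dropped and each peak given to its closest gene at any distance, the count was 8 and 8 (beside 6.2% and 5.08%). Within 100 kb (12 and 11 members) it was 7 and 7 with the wider peaks (beside 7.69% and 6.91%), and 7 in 3T3-L1 with a 50 kb window (beside 8.6%). Shared peaks (5 and 5) fell to 3 and 3 when the overlap had to be at least 50% of both peaks (beside 18.2% and 28.5% of the lists). Windows with no flank (beside 2.78% and 2.59% of all genes), 5 kb (3.45% and 3.32%) or 20 kb (5.1% and 4.53%) left 5 and 3 members. A 200 kb window gave 18 and 15 members, beside 23.4% and 20.5%, and counting members that share a peak once gave 11 and 10. Leaving out dense runs changed none of the member counts. Using any base of a peak in place of its centre changed none either, nor did either setting change a count of the other 3 lists, for which both were chosen after seeing the data. Weak sites that deeper sequencing might have called cannot be judged from lists without depth.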

Other observations

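The genes left out of the member list can be set beside it. Pparg held 2 peaks of 3T3-L1, 71.0% and 78.9% along the gene, and none of C3H10T1/2 in the body. Its dimer partner Rxra had the reverse, with 1 C3H10T1/2 peak in the body and another 1.19 kb beyond its 3′ end, and its nearest 3T3-L1 peak 30.4 kb beyond that end. None of these peaks overlapped between the lines, whereas the body peaks of Rara did.

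Several ligand-handling and target genes had a distal site in common between the lines. They are named here after their values were seen, and the share of all genes with such a site was not computed. The retinaldehyde reductase gene Dhrs3 had one 21.5 kb downstream, inside Vps13d. The retinoic acid hydroxylase gene Cyp26b1 had one 63.0 kb upstream, inside Exoc6b. Dio3, whose enzyme inactivates thyroid hormone, had one 72.2 kb upstream in 3T3-L1 and 72.1 kb upstream in C3H10T1/2. Sgk1 had one 48.3 kb upstream, where the peaks were 309 and 298 bp wide. The estrogen target Greb1 had one 39.8 kb upstream, with E2f6 the nearest gene at 14.4 kb. Ch25h, which makes 25-hydroxycholesterol, had a peak of each line at 62.6 and 64.5 kb downstream that did not overlap.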
